A study of Mus musculus with 6 samples.

Results

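Hepatic stellate cells were followed in whole-liver RNA through 10 marker genes, taken by gene symbol from a table of 17460 genes: Acta2, Tagln, Des, Vim, Pdgfrb, Lrat, Reln, Dcn, Lum and Sparc. All 10 had reads in all 6 livers and all were among the 17297 genes tested. PolyA-selected RNA was sequenced from the livers of C57BL/6 mice, 9 months old, that had eaten a NASH diet for 24 weeks. There were 3 samples from controls and 3 from mice with a liver-specific knockout of the long noncoding RNA Blnc1 (Blnc1 LKO). The NASH diet is rich in fructose, trans fat and cholesterol and gives steatohepatitis with fibrosis. The study made its liver knockout in mice that carry a Cas9 transgene, so that Cas9 was present in all tissues, by a tail vein injection of an adenovirus with a pair of guide RNAs to Blnc1. For a high-fat diet experiment its controls are described as the same mice given a GFP adenovirus, and the virus given to the controls used here is not stated separately. In its description the virus acts in hepatocytes and enters non-parenchymal cells, to which stellate cells belong, only poorly. For this method the study reports a partial loss of Blnc1. The loss was moderate in whole liver, larger in isolated hepatocytes and largely absent in non-parenchymal cells. Blnc1 itself was not analysed here. The comparison asks how these genes differed between the livers of the 2 groups.

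Stellate cells lie between hepatocytes and the sinusoidal endothelium. In a healthy liver they are quiescent and store vitamin A as retinyl esters in lipid droplets. In injured liver they lose these stores and become contractile, matrix-secreting myofibroblasts that express smooth muscle actin and fibrillar collagens. The 10 markers cover both states: Lrat and Reln are typical of quiescent cells, Des, Vim and Pdgfrb are found in both states, and Acta2, Tagln and the matrix genes Dcn, Lum and Sparc are typical of activated cells or of fibroblasts in general.

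The contractile markers and Sparc had the lowest levels in Blnc1 LKO relative to control livers, whereas the quiescence markers Lrat and Reln were not lower on average. Acta2 was at 69.9% of its control mean and was below every control liver in all 3 Blnc1 LKO livers. Of the 10 markers, 8 had a log2 fold change below 0, against 50.4% of all genes tested. None passed an adjusted p of 0.05 in limma, fitted on log2(value + 1) across all genes, where 0.00578% of genes (1 gene) did. At an unadjusted p under 0.05 there were 3 markers (Acta2, Tagln and Sparc), all lower, against 2.74% of all genes lower and 2.94% higher. The median log2 fold change of the 10 markers was -0.10, beside -0.00099 for all genes tested. Acta2 was the only marker called by a count model: DESeq2 on the recovered reads gave a log2 fold change of -0.51 with an adjusted p of 0.0157, in a test where 0.25% of genes were called lower. Its adjusted p was 0.543 in edgeR's quasi-likelihood test and ranged from 0.0157 to 0.693 over the 10 alternatives that kept all 6 livers. In bulk RNA, fewer cells of a type and less RNA per cell cannot be told apart.

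**Figure D1:**
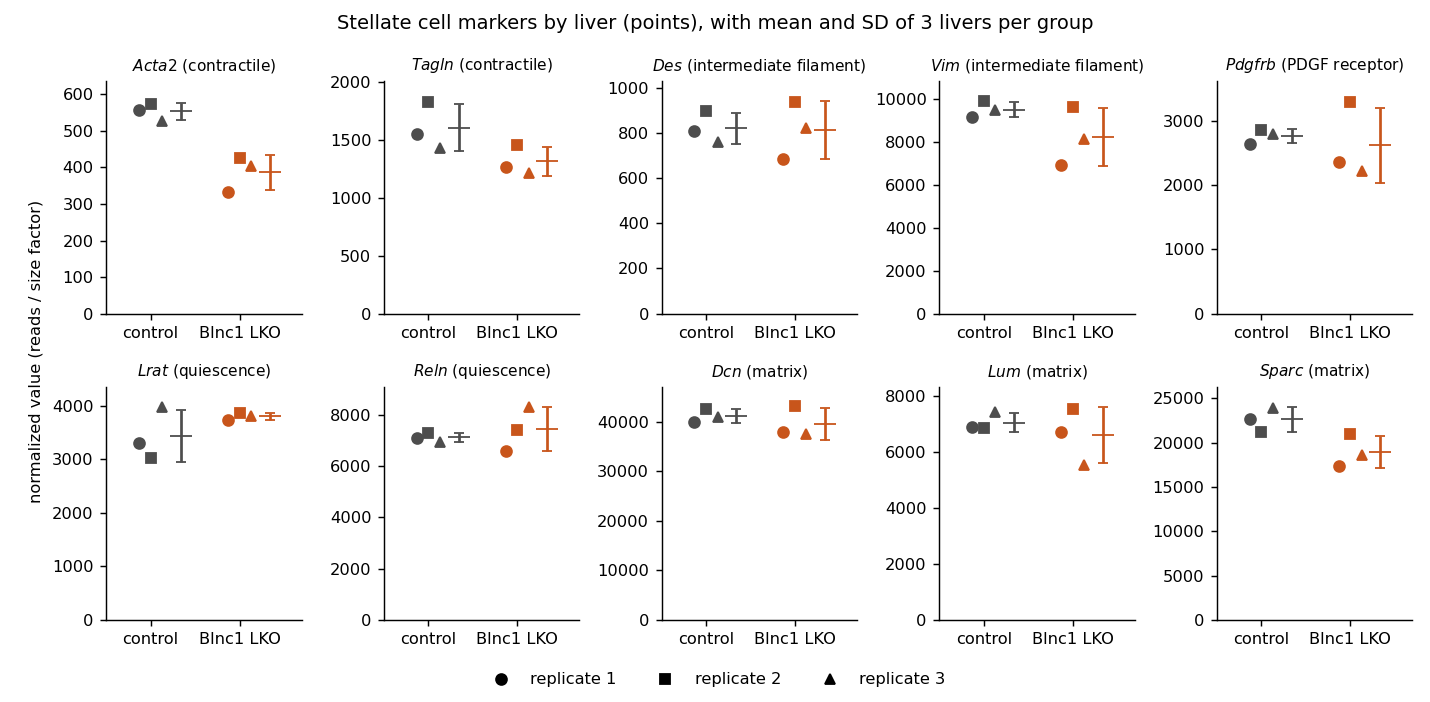
Normalised value (reads divided by the size factor of the liver) of each marker in every liver, with replicate 1 as a circle, replicate 2 as a square and replicate 3 as a triangle; the bars give the mean and SD of the 3 livers of a group. Acta2 and Sparc are the markers whose Blnc1 LKO points all lie below the control points.

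Acta2 (ENSMUSG00000035783.9, chr19:34241090-34255590, minus strand, GRCm38) encodes smooth muscle alpha-actin, the actin of the stress fibres that an activated stellate cell builds. Its normalised values were 558, 574 and 528 in control replicates 1 to 3, and 332, 425 and 404 in Blnc1 LKO replicates 1 to 3. The highest Blnc1 LKO liver was below the lowest control liver, as was seen for 5.28% of all genes (all Blnc1 LKO livers above was seen for 5.35%). The group means were 554 ± 23.3 for control and 387 ± 48.6 for Blnc1 LKO (SD, n = 3). The log2 fold change was -0.52 (SE 0.11, 95% confidence interval -0.77 to -0.27), with an unadjusted p of 0.0012 and an adjusted p of 0.548 in limma. With each liver left out in turn it lay between -0.59 and -0.42, and the unadjusted p stayed under 0.05 in 6 of 6 such fits. These values rest on 279 to 599 reads per liver, the fewest of the 10 markers. Of the 50-base stretches of its exons, 0.326% also occur in other genes, among them Actg1 and pseudogenes of it. Cytoplasmic actin Actb, which shares much of its coding sequence, had a log2 fold change of -0.12, and the much lower enteric smooth muscle actin Actg2 had means of 15.9 and 11.9.

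Transcription of Acta2 is known to depend on serum response factor, which binds CArG boxes (in the strict form CC, then 6 letters of A or T, then GG). RefSeq upstream sequences were matched by symbol and used for 6 of the 10 markers (Acta2, Des, Vim, Lrat, Reln and Sparc). The strict CArG form and the AP-1 motif TGANTCA were read on both strands. Neither occurs in the 250 bases before the start of any of the 6. Over 32851 promoters, 1.47% and 6.75% hold them in the same 250 bases. The strict form misses boxes with a C or G inside, so its absence does not show that a promoter lacks a CArG box. Binding was not tested. A looser CArG, in which 1 of the 6 inner letters is C or G, was chosen after the sequences were seen and occurs in 7.24% of promoters. It is present at -84 to -75 and at -34 to -25 from the Acta2 start, and at -223 to -214 from the Lrat start, and in none of the other 4. Both sequences are shown because these are the activation and the quiescence marker with a match, with the match in capitals, 5′ to 3′ on the minus strand, which codes both genes, from RefSeq on GRCm38.p6. The Acta2 stretch is chr19:34255374-34255623 and the Lrat stretch is chr3:82903975-82904224. Part of the Acta2 stretch, and all of the Vim and Sparc stretches searched, lie inside the GENCODE gene, whose annotated 5′ end is further upstream.
Acta2: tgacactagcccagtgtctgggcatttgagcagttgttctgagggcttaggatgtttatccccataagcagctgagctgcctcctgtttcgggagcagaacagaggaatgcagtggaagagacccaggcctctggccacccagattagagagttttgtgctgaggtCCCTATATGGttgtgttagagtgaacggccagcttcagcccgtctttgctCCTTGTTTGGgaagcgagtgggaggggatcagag
Lrat: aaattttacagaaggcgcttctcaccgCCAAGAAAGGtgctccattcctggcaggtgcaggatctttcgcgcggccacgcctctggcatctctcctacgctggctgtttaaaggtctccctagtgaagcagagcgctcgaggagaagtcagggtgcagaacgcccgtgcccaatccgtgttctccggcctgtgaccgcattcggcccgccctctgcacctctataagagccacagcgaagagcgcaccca

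Tagln (ENSMUSG00000032085.5, chr9:45929619-45936058, minus strand) encodes transgelin, an actin-binding protein of smooth muscle and myofibroblasts. It had values of 1554, 1829 and 1435 in control and 1267, 1461 and 1218 in Blnc1 LKO livers. Blnc1 LKO replicate 2 was above control replicate 3, so the groups overlapped. The means were 1606 ± 202 and 1316 ± 128 (SD, n = 3 each), and the log2 fold change was -0.28 (SE 0.10, 95% confidence interval -0.52 to -0.05, unadjusted p = 0.0245, adjusted p = 0.840 in limma). Its unadjusted p was under 0.05 in 3 of the 6 fits that left out 1 liver, in which the log2 fold change ranged from -0.36 to -0.19. Of the exon bases of Tagln, 62.42% are also covered by the antisense gene Gm48529, which was not among the genes tested. Another 5.43% are covered by Pcsk7 on the other strand. The strand setting of the counting is not given in the sources used here, so the Tagln value is uncertain. Pcsk7, a proprotein convertase, had means of 2237 and 2467, with all 3 Blnc1 LKO livers above the control livers. Tagln2, the transgelin of non-muscle cells, had a log2 fold change of -0.29 and an adjusted p of 0.851 in limma.

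Des and Vim encode the intermediate filaments desmin, of muscle and stellate cells, and vimentin, of mesenchymal and also endothelial and white blood cells. Des (ENSMUSG00000026208.9, chr1:75360329-75368579, plus strand) had values of 807, 895 and 758 in control and 683, 937 and 820 in Blnc1 LKO livers. The Blnc1 LKO livers held both the lowest and the highest of the 6 values. Its log2 fold change was -0.02 (SE 0.12) with a 95% confidence interval from -0.30 to 0.25, and it turned positive without control replicate 2 (0.04) or without Blnc1 LKO replicate 1 (0.10). Vim (ENSMUSG00000026728.9, chr2:13573927-13582826, plus strand) had values of 9149, 9885 and 9487 in control and 6935, 9619 and 8123 in Blnc1 LKO livers. Blnc1 LKO replicates 1 and 3 were below all controls, while replicate 2 lay between them. The log2 fold change of Vim was -0.22 (SE 0.11, 95% confidence interval -0.46 to 0.02, adjusted p = 0.891 in limma), and it ranged from -0.34 without Blnc1 LKO replicate 2 to -0.10 without Blnc1 LKO replicate 1.

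Pdgfrb (ENSMUSG00000024620.11) encodes the receptor for PDGF-B, a strong growth signal for activated stellate cells. Its values were 2651, 2868 and 2792 in the controls, a narrow range, and 2356, 3293 and 2219 in the knockouts. Replicate 2 of Blnc1 LKO was the highest of all 6 livers and the other 2 were the lowest. The log2 fold change was -0.10 (SE 0.13), with a 95% confidence interval from -0.40 to 0.20. It was -0.28 without Blnc1 LKO replicate 2 and 0.009 without replicate 3, so its direction rested on single livers. Of the 6 other PDGF ligands and receptors, 4 were lower and 0 had an unadjusted p under 0.05. Pdgfb, the main ligand of this receptor, had means of 732 ± 41.8 and 656 ± 143 (SD, n = 3), and Pdgfc had 835 ± 65.3 and 951 ± 72.2.

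The quiescence markers had levels at or above control on average. Lrat (ENSMUSG00000028003.6, chr3:82892579-82903973, minus strand) encodes lecithin retinol acyltransferase, which makes the retinyl esters that stellate cells store. Its values were 3299, 3024 and 3976 in control and 3738, 3871 and 3807 in Blnc1 LKO livers. All 3 Blnc1 LKO livers were above control replicates 1 and 2 and below control replicate 3, and they were close to each other, with an SD of 0.03 on the log2 scale against 0.20 in control livers. The log2 fold change was 0.16 (SE 0.09, 95% confidence interval -0.05 to 0.37, adjusted p = 0.937 in limma). It ranged from 0.07 without control replicate 2 to 0.27 without control replicate 3. Reln (ENSMUSG00000042453.14, chr5:21884454-22344702, minus strand) encodes reelin, a secreted glycoprotein made in liver by stellate cells. It had values of 7094, 7281 and 6947 in control and 6585, 7416 and 8310 in Blnc1 LKO livers. The Blnc1 LKO livers spanned the whole control range on both sides. Its log2 fold change was 0.06 (SE 0.08, 95% confidence interval -0.13 to 0.25), and -0.02 without Blnc1 LKO replicate 3.

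Dcn and Lum, neighbours on chromosome 10 with 46985 bases between them, encode decorin and lumican, small leucine-rich proteoglycans that bind collagen fibrils. Dcn (ENSMUSG00000019929.16, chr10:97479609-97518143, plus strand) had values of 39903, 42587 and 40886 in control and 37795, 43115 and 37569 in Blnc1 LKO livers. Lum (ENSMUSG00000036446.5, chr10:97565128-97572703, plus strand) had values of 6879, 6840 and 7418 in control and 6717, 7523 and 5541 in Blnc1 LKO livers. For both genes Blnc1 LKO replicate 2 was the highest liver of all 6 and the other 2 were below every control. The log2 fold change was -0.06 (95% confidence interval -0.23 to 0.11) for Dcn and -0.11 (-0.34 to 0.13) for Lum, which moved to -0.21 without Blnc1 LKO replicate 2 and to 0.01 without replicate 3. The ratio of Lum to Dcn in 1 liver was 0.171 ± 0.0104 in the control group and 0.167 ± 0.0166 in the knockout group (SD, n = 3). Of the 11 other proteoglycans of this family that were tested, 6 were lower, and 1 had an unadjusted p under 0.05, Nyx, at a level near 0 (means of 2.49 and 7.04). Bgn, encoding biglycan, had means of 36839 ± 1615 and 33110 ± 5414 (SD, n = 3).

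Sparc (ENSMUSG00000018593.13, chr11:55394500-55423183, minus strand) encodes osteonectin, a secreted protein that binds collagen and is made by mesenchymal and endothelial cells. Its values were 22714, 21213 and 23933 in control and 17414, 20951 and 18587 in Blnc1 LKO livers. All Blnc1 LKO livers were below all control livers, with replicate 2 close under the lowest control. The means were 22620 ± 1362 and 18984 ± 1802 (SD, n = 3), and the log2 fold change was -0.26 (SE 0.08, 95% confidence interval -0.44 to -0.07, unadjusted p = 0.0121, adjusted p = 0.785 in limma). The log2 fold change ranged from -0.33 to -0.20 with 1 liver left out, and the unadjusted p was under 0.05 in 5 of the 6 fits (0.0506 without control replicate 3). Endothelial cells also make Sparc and Vim, and 14 of 16 endothelial marker genes were lower, 7 of them at an unadjusted p under 0.05, beside 50.4% and 2.74% of all genes. Their summed value was 45362 to 49052 in the controls and 44084 to 44965 in the knockouts, without overlap. The sums of the contractile, myofibroblast activation and intermediate filament lists, whose genes are given below, did not overlap between groups either. In the intermediate filament sum, 79680 in control replicate 1, the keratin genes Krt8 and Krt18 alone held 35631 and 34377. How often sums of other gene sets lie apart was not computed, so the lack of overlap is only a description. All these lists were chosen with earlier results of these data known. The part of endothelial cells in the values of Sparc and Vim was not tested. Of the 7 other genes of the SPARC family, 3 were lower and 0 had an unadjusted p under 0.05.

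**Figure D2:**
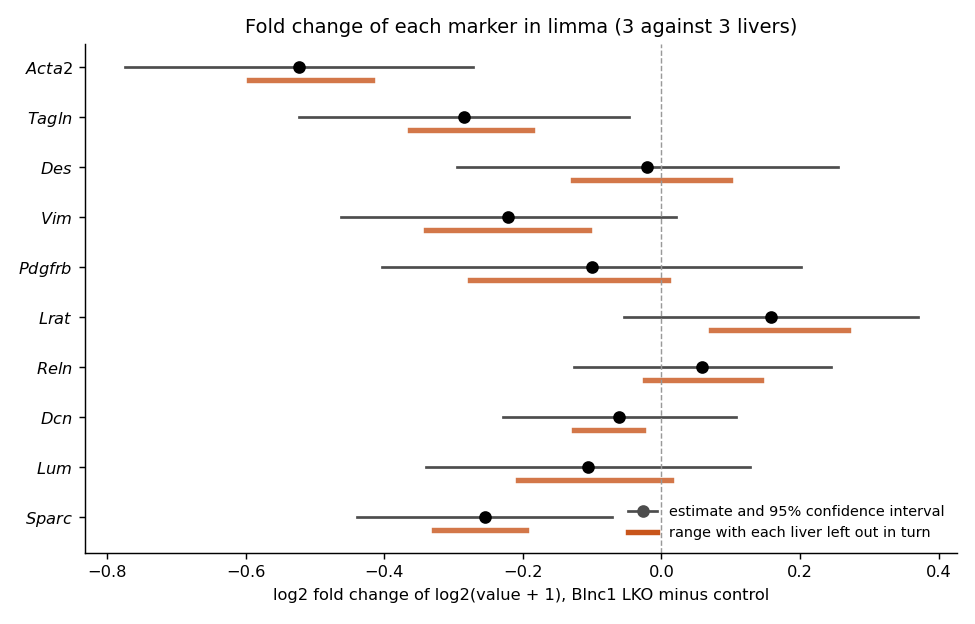
Log2 fold change of each marker, Blnc1 LKO minus control, on the log2(value + 1) scale, with the 95% confidence interval from limma (grey line) and the range of the estimate with each of the 6 livers left out in turn (orange bar). The orange bar crosses 0 for Des, Pdgfrb, Reln and Lum and stays below 0 for Acta2, Tagln, Vim, Dcn and Sparc.

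The Blnc1 LKO livers differed more among themselves in these genes than the control livers did. The median SD of the 10 markers on the log2 scale was 0.06 in control and 0.18 in Blnc1 LKO livers, beside 0.09 and 0.15 for all genes tested. Blnc1 LKO replicate 2 was the highest of the 3 Blnc1 LKO livers for 9 of the 10 markers (all but Reln) and the highest of all 6 livers for 4 of them. Replicate 1 was the lowest Blnc1 LKO liver for 6 markers and replicate 3 for the other 4. Relative to the control mean, the median marker was at -0.25 in replicate 1, 0.07 in replicate 2 and -0.25 in replicate 3 on the log2 scale. The 10 markers together took 0.128% to 0.131% of the reads in the controls, beside 0.108%, 0.138% and 0.116% in Blnc1 LKO replicates 1 to 3. With Blnc1 LKO replicate 1 left out, 3 markers had an unadjusted p under 0.05 (Acta2 and Sparc lower, Reln higher), and with replicate 3 left out 2 had (Acta2 and Sparc, lower). Of the 17297 genes tested, 983 and 958 had such a p in those fits, in either direction. Without Blnc1 LKO replicate 2, 6 markers were lower at an unadjusted p under 0.05 in limma (Acta2, Tagln, Vim, Pdgfrb, Lum and Sparc) against 5.44% of all genes lower and 5.23% higher, and 0 had an adjusted p under 0.05. Since replicate 2 held the highest values, leaving it out lowers the group by construction, and the larger count is no evidence of a difference. Acta2 was then at -0.59 (SE 0.11) and Sparc at -0.33 (SE 0.07), while Lrat was at 0.15. Over all genes, Blnc1 LKO replicate 2 stood no further from its group than the others: the root mean square log2 difference from the other 2 livers of the group was 0.242 to 0.261 for Blnc1 LKO and 0.165 to 0.198 for control livers.

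**Figure D3:**
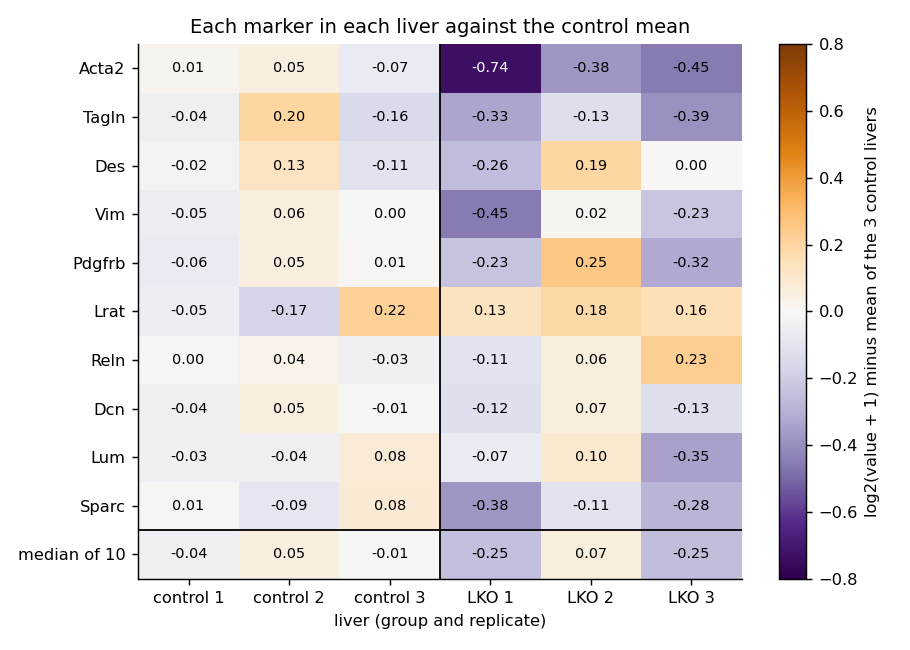
Log2(value + 1) of each marker in each liver minus the mean of the 3 control livers, from purple (lower) to orange (higher), with the median of the 10 markers in the bottom row. Acta2 is below the control mean by 0.38 or more in every Blnc1 LKO liver, while in Blnc1 LKO replicate 2 all markers but Acta2, Tagln and Sparc are above it.

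Ratios within a liver, which are free of the scaling between libraries, set the activation markers against the others. The ratio of Acta2 to Lrat was 0.169, 0.190 and 0.133 in control and 0.0888, 0.110 and 0.106 in Blnc1 LKO livers. The ratio of Acta2 to Reln was 0.0787, 0.0789 and 0.0761 in control and 0.0504, 0.0573 and 0.0486 in Blnc1 LKO livers. The ratio of Acta2 to Des had means of 0.677 ± 0.0304 and 0.477 ± 0.0208, and that of Acta2 to Pdgfrb 0.200 ± 0.0107 and 0.151 ± 0.0277 (SD, n = 3). In all 4 ratios every Blnc1 LKO liver was below every control liver, replicate 2 included, so Acta2 was lower in relation to other stellate cell genes of the same liver too. The ratio of Acta2 to Tagln, 0.347 ± 0.0291 and 0.295 ± 0.0348, overlapped between groups. Sparc was lower in relation to Dcn (0.551 ± 0.0464 and 0.480 ± 0.0176) and to Lrat (6.64 ± 0.542 and 4.98 ± 0.387), again without overlap. The ratios of Tagln, Vim and Des to Lrat overlapped between groups too. For Tagln to Lrat they were 0.471, 0.605 and 0.361 in control and 0.339, 0.377 and 0.320 in Blnc1 LKO livers. The 11 ratios computed share genes and are given as a description with no test, and how often ratios of other genes overlap was not computed.

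**Figure D4:**
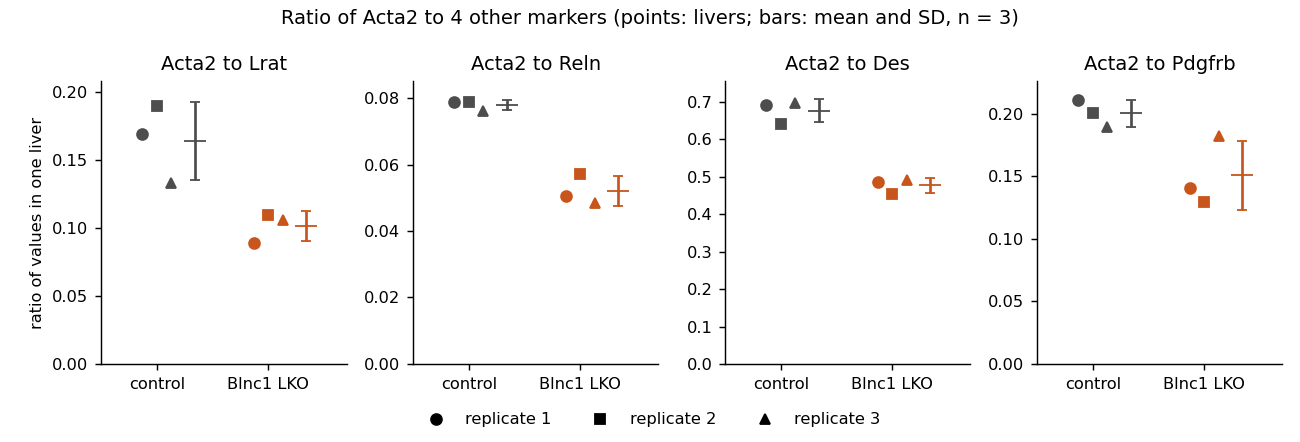
Ratio of the Acta2 value to the value of Lrat, Reln, Des or Pdgfrb in the same liver (points, with the mean and SD of 3 livers). All Blnc1 LKO points lie below all control points in each of the 4 panels, narrowly for Pdgfrb (0.182 in the highest Blnc1 LKO and 0.189 in the lowest control liver).

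Levels can be compared between genes per length, as the normalised value per kb of exon. On that scale, in control livers, Dcn was the highest at 7044 per kb, followed by Sparc at 5971, Lum at 2878, Vim at 2004 and Tagln at 808. Below them were Lrat at 642, Pdgfrb at 506, Reln at 299, Acta2 at 252 and Des at 218 per kb. The ranges over the 6 livers of Tagln and Lrat, of Lrat and Pdgfrb, and of Acta2 and Des overlapped, so these neighbours were not apart beyond their spread. Dcn, Sparc and Lum were the most abundant of the 10 markers per kb in control livers, and Acta2 was among the least, with 151 to 193 per kb in Blnc1 LKO livers.

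The genes whose pattern over the 6 livers was closest to a marker were found by the root mean square difference of log2 values after the mean of each gene was removed, over 12862 genes. For Acta2 these were Nr4a2 (0.068), Mmp13 (0.074) and Gpr4 (0.075), and for Tagln they were Saa1 (0.041), Ppp2r3d and Saa2. The collagenase gene Mmp13 had values of 613, 585 and 640 in control and 359, 459 and 448 in Blnc1 LKO livers. The acute-phase gene Saa1 had values of 37288, 42031 and 31285 in control and 29284, 33033 and 28220 in Blnc1 LKO livers. For Vim the closest genes were Tpm4, Olfml3 and Ckap4 (0.032 to 0.033), and for Sparc they were Nid1, Ctdspl and Lpcat2 (0.034 to 0.036). For Des they were Tsc22d4, Rph3al and Tacc2, for Pdgfrb Tuba1a, Astn2 and Gimap3, for Lrat Hirip3, Suv39h1 and Fut8, and for Reln Pparg, Plekhm1 and Kmt2d. For Dcn they were Casp2, Arl6 and Hdac5, and for Lum Ska2, 1810037I17Rik and Rdm1. Among the markers themselves, Vim and Sparc were the closest pair (0.097), then Dcn and Lum (0.102), and Acta2 and Lrat were the furthest apart (0.385).

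Other genes of the same cells and pathways were read from lists, each given with its counts, since no set was tested. The lists were chosen with earlier results of these data known, so an excess over all genes is only a description. The counts stand beside 50.4% of all genes lower, 2.74% lower and 2.94% higher at an unadjusted p under 0.05, and 0.25% called lower by DESeq2. Of 24 stellate cell genes other than the 10 markers, 14 were lower, with a median log2 fold change of -0.02. Only Rgs5, a pericyte and stellate cell regulator of G protein signalling, was lower at an unadjusted p under 0.05 (2191 ± 135 and 1791 ± 1.82, SD, n = 3) and only Hhip, an inhibitor of hedgehog signalling, was higher (80.1 ± 24.1 and 168 ± 64.8). Neither had an adjusted p under 0.05 in limma (0.548 and 0.791), whereas DESeq2 called Rgs5 lower (adjusted p = 0.0492) and not Hhip (0.103). The median of 19 retinoid handling genes was 0.006, with 9 lower. Of 22 contractile and SRF target genes 18 were lower, with a median of -0.07, and 3 were lower at an unadjusted p under 0.05, against 2.74% of all genes: Tpm4 (-0.23), Tpm1 (-0.16) and Myl6 (-0.13), which encode tropomyosins and a myosin light chain. Of 30 genes of myofibroblast activation, 26 were lower, with a median of -0.21, and 10 were lower at an unadjusted p under 0.05, against 2.74% of all genes. Col1a1, encoding a chain of type I collagen, had the smallest p of the list, with values of 15541, 11645 and 14716 in control and 8006, 10928 and 8500 in Blnc1 LKO livers. DESeq2 called 5 of these 30 genes lower, against 0.25% of all genes, and limma called 0 at an adjusted p under 0.05. Of 14 other intermediate filament genes 9 were lower, 3 of them at an unadjusted p under 0.05, and those were Krt8 (-0.36), Krt18 (-0.28) and Lmna (-0.20), of which the keratins are filaments of hepatocytes and bile duct cells. In the same list 1 gene was higher at that p, Krt23 (0.42), another keratin.

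**Figure D5:**
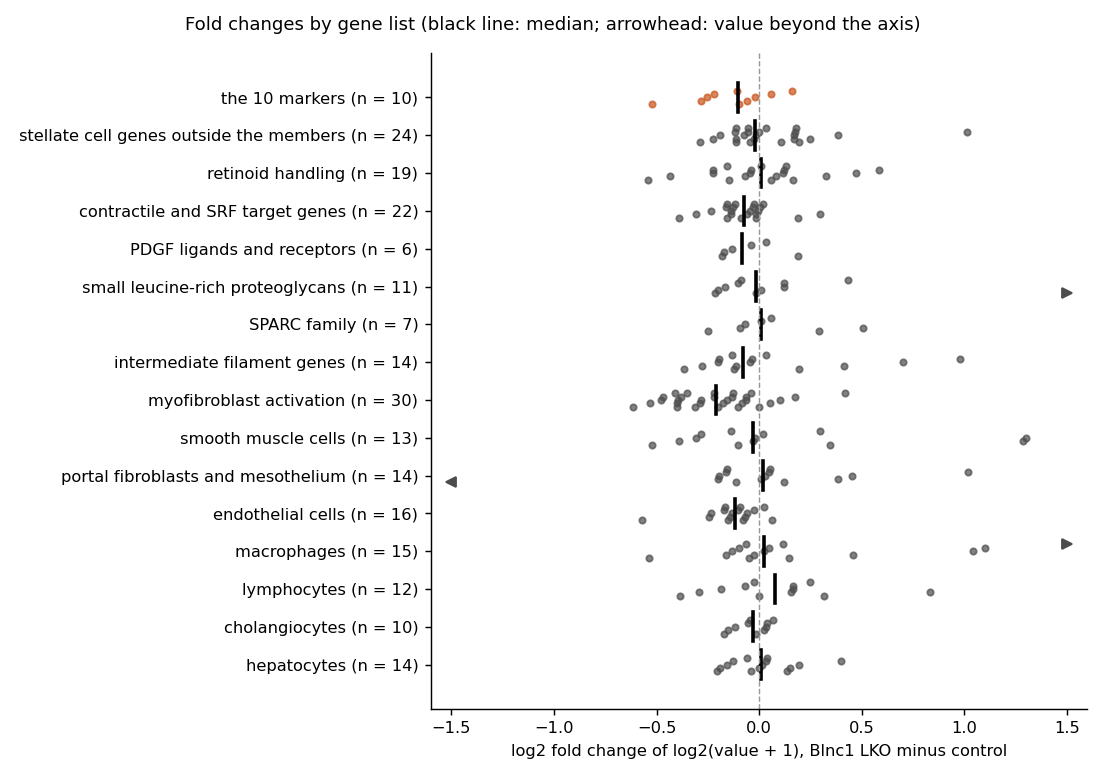
Log2 fold change of each gene (point) on the log2(value + 1) scale, Blnc1 LKO minus control, for the 10 markers (orange) and 15 gene lists (grey), with the median of each list as a black line; arrowheads stand for values beyond the axis. The list of myofibroblast activation has the lowest median, -0.21, and the stellate cell genes outside the 10 markers lie around 0. The lists were chosen with earlier results of these data known.

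Several of the 10 markers are made by other liver cells too, and the marker lists of those cells are given for that reason. Of the endothelial genes, Lyve1, a hyaluronan receptor of sinusoidal endothelium, had means of 2407 ± 350 and 1634 ± 371 (SD, n = 3), and Pecam1, an adhesion protein of all endothelium, 2928 ± 95.7 and 2611 ± 84.8. The summed value of 15 macrophage genes overlapped, at 127160 to 136221 in control and 125741 to 141266 in Blnc1 LKO livers, with 1 gene lower and 5 higher at an unadjusted p under 0.05. Of the 13 genes of the smooth muscle list, which holds Acta2, Tagln and Des, 8 were lower, and the summed value was 4498 to 5619 in control and 3984 to 5059 in Blnc1 LKO livers. Myh11, the smooth muscle myosin, had values of 154, 224 and 121 in control and 115, 174 and 168 in Blnc1 LKO livers, which overlapped, and Myocd was at 0 in 2 of the control livers. Of 14 genes of portal fibroblasts and mesothelium 6 were lower, 1 of them at an unadjusted p under 0.05, Clec3b, and the sums overlapped at 26832 to 28800 and 22479 to 30047. Clec3b, encoding tetranectin, had means of 121 ± 17.5 and 18.8 ± 6.94 (SD over 3 livers), and its call depended on the tool, with an adjusted p of 0.0515 in limma, 0.0488 in edgeR and 3.41e-13 in DESeq2. The lists of lymphocytes, cholangiocytes and hepatocytes had 6 of 12, 6 of 10 and 6 of 14 genes lower, with overlapping sums. What part these cells had in the marker values was not tested.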

How the data were processed

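Per the study's methods and notes, FastQC, STAR alignment (mm10), HTSeq counting and DESeq2 were used (versions and annotation not given in the sources used here). The deposited signal holds gene counts that the authors scaled by 1 factor for each library. Columns named wild-type and knockout were matched by number to the control and LKO livers. Whole reads were recovered for 100% of values (within 0.01), 65384969 to 89350181 per liver. Limma 3.58.1 (R 4.3.3, trend) was fitted on log2(value + 1) to 17297 genes whose value reached 1 in 3 or more of 6 livers, two-sided, with Benjamini-Hochberg adjustment. It was tested on simulated data with planted changes larger than those of the markers, so that test does not cover changes of their size. EdgeR 4.0.16 and DESeq2 1.42.0 on recovered reads, other pseudocounts, filters and scalings, a replicate block and leaving out each liver were alternatives. Exact permutation of 3 against 3 cannot go below p = 0.1. Each sample is called a liver here, although the labels do not say that each is a separate animal. The p-values thus measure the spread between these samples, which may be technical. No replicates were alike within sampling noise (chi-square per degree of freedom 20.8 to 70.0). Genes named are the 10 markers, up to 4 of smallest unadjusted p in each of 15 lists, the 3 nearest in pattern, and overlapping genes and paralogs; Myh11 is named outside that rule, with its values seen. Markers and lists were chosen with earlier results of these data known. Positions and lengths are from GENCODE M21 (GRCm38). Promoters are from RefSeq (GRCm38.p6).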

Additional observations from a re-analysis of the deposited data

How the results depend on the processing

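All 10 markers kept their direction under the 10 alternatives that kept all 6 livers, and Acta2, Tagln, Vim, Lrat, Dcn and Sparc also with any 1 liver left out. The number of markers with an adjusted p under 0.05 was 0 throughout except under DESeq2 on recovered reads, where it was 1 (Acta2, log2 fold change -0.51). The number of all genes called was 2 with a pseudocount of 10, with no filter on low values or in edgeR, 84 in DESeq2, and 0 to 13 with 1 liver left out. Markers with an unadjusted p under 0.05 numbered 2 to 6 with 1 liver left out, beside 665 to 1845 of the 17297 genes tested. Both counts were highest without Blnc1 LKO replicate 2, and the cause was not tested. The range with 1 liver left out was -0.13 to 0.10 for Des (0.04 without control replicate 2), -0.28 to 0.0088 for Pdgfrb, -0.024 to 0.14 for Reln and -0.21 to 0.014 for Lum. With the replicate number as a block, 0 genes were called and 4 markers (Vim added) had an unadjusted p under 0.05, beside 912 of all genes. Deviations of same-numbered livers correlated at -0.058, -0.019 and -0.107, and those of differently numbered livers at -0.047 to 0.105. With 3 livers a group, these values cannot decide whether the numbers mark paired livers. Of 240 list medians under the alternatives, 231 moved by less than the spread between replicates. With 3 livers a group and 279 to 599 reads, Acta2 is the marker most limited by counting error.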
